A study of Homo sapiens with 6 samples.

Results

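The transcripts of the hypoxia-inducible factor (HIF) system were examined in RCC4 cells, which were derived from a human renal carcinoma of the clear cell type and carry no working VHL protein. The 9 genes were taken by name for their role: the alpha subunits HIF1A, EPAS1 and HIF3A, the partner subunit ARNT, the prolyl hydroxylases EGLN1, EGLN2 and EGLN3, the asparaginyl hydroxylase HIF1AN, and VHL. They were 9 of 60683 genes in the count table, and 8 of them had enough reads to be tested. Bulk mRNA was sequenced from 3 libraries of RCC4 cells with ATF4 knocked out and 3 libraries of the parental cells, whose genotype is labelled wild type. ATF4 is a transcription factor of the integrated stress response, and both groups share the VHL-deficient background of the line. The labels give no treatment, leave out the method of the ATF4 knockout and whether its cells are 1 clone or a pool, and do not state that the replicates were cultured separately. All p-values thus reflect the spread between these libraries alone, part or all of which may be technical.

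HIF is a dimer of an oxygen-labile alpha subunit and the stable beta subunit ARNT. When oxygen is present, the EGLN enzymes hydroxylate prolines of the alpha subunit, VHL binds the hydroxylated protein as the substrate-recognition part of a ubiquitin ligase, and the subunit is degraded. HIF1AN hydroxylates an asparagine that controls binding of the coactivators EP300 and CREBBP. In VHL-deficient renal carcinoma cells the alpha proteins accumulate without hypoxia, and HIF-1alpha (from HIF1A) and HIF-2alpha (from EPAS1) are known to favour different target genes. The libraries measured transcripts only, and neither the alpha proteins nor their hydroxylation were measured.

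Library totals were 41002611 to 46755358 counts, so 3 counts corresponded to 0.0642 to 0.0732 CPM (a gene's count over the library total, on the usual CPM scale), which is the limit that a count of 0 allows for counting error. The ATF4 transcript was still read in every library, with 8628, 10386 and 9895 counts in the knockout and 10413, 11037 and 10219 counts in the parental cells. On the scale normalised by trimmed mean of M values (TMM-scaled CPM, used throughout), it averaged 214 ± 8.04 in the knockout and 244 ± 5.97 in the parental cells (SD, n = 3 each; log2 fold change -0.19, SE 0.029, edgeR quasi-likelihood test with Benjamini-Hochberg adjusted p = 3.19e-07). The median log2 fold change of the tested genes within 10 Mb on either side of ATF4 was -0.27, so the transcript level of ATF4 does not check the labels. All 8 renal epithelial markers were read in every library and summed to 6728 to 6932 CPM in the knockout and 6128 to 6492 CPM in the parental cells. Of 9 markers of blood, endothelial, fibroblast, liver and erythroid cells, 8 had 0 to 6 counts per library. The exception was COL1A1, and the summed level of those 9 was 46.6 to 46.7 CPM in the knockout and 49.9 to 62.3 CPM in the parental cells. The part of these shifts in the results below was not tested.

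Of the 8 tested members, 4 were higher in the knockout (HIF1A, EGLN1, EGLN3 and VHL), 1 was lower (EPAS1) and 3 did not pass the test (ARNT, EGLN2 and HIF1AN). Over all 15321 tested genes, 21.2% were called higher and 20.8% lower at an adjusted p below 0.05. The knockout and parental libraries did not overlap for 4 of the 8 members, against 49.6% of all tested genes, so this count does not set the members apart from other genes. Whether the members called higher or lower differ from the shares of all genes was not tested. The median log2 fold change was 0.11 over the 8 members and 0.01 over all tested genes. In bulk libraries, fewer cells that express a gene and less RNA per cell cannot be told apart.

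**Figure D1:**
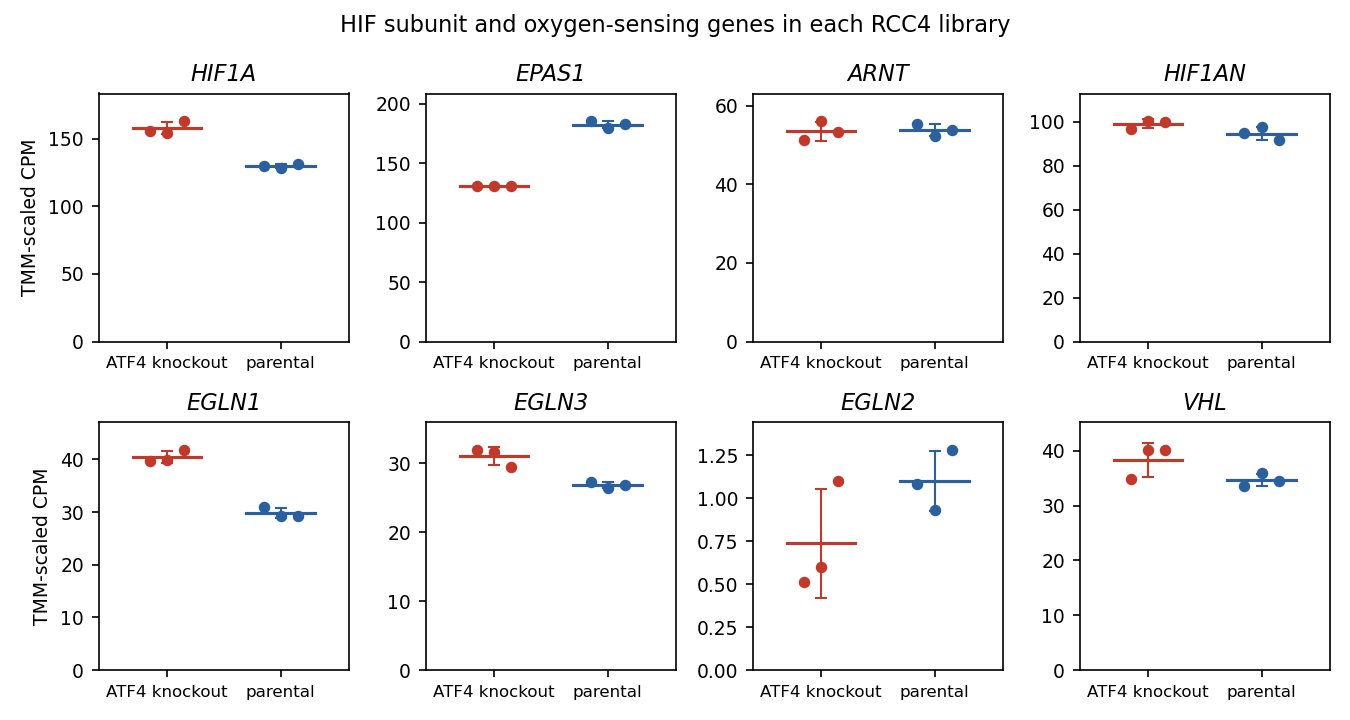
TMM-scaled CPM (y axis, linear from 0, with a separate scale for each gene) of the 8 tested genes in the 3 ATF4 knockout libraries (red) and the 3 parental libraries (blue); each point is a library, the horizontal line is the mean and the bar is the SD. The groups are apart for HIF1A, EPAS1, EGLN1 and EGLN3 and overlap for ARNT, HIF1AN, EGLN2 and VHL.

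The alpha subunits moved in opposite directions. HIF1A (ENSG00000100644) encodes HIF-1alpha, the broadly expressed alpha subunit that drives many glycolytic genes, and lies at chr14:61695513-61748259 on the plus strand (GRCh38). It had 6403, 7179 and 7703 counts in the knockout and 5648, 5630 and 5517 counts in the parental cells, or 156, 154 and 163 CPM in the knockout and 130, 128 and 131 CPM in the parental cells. Every knockout library was above every parental library. The means were 158 ± 4.56 and 130 ± 1.48 CPM in the knockout and parental cells (SD, n = 3 each). The log2 fold change was 0.28 with SE 0.030 and a 95% interval of 0.22 to 0.34, a 1.22-fold higher level (edgeR, adjusted p = 2.29e-11). The rise stayed between 0.26 and 0.30 on the log2 scale when any 1 library was left out. Of the HIF1A exon bases, 2.9% are shared with another gene on the same strand.

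EPAS1 (ENSG00000116016) encodes HIF-2alpha, the alpha subunit linked with growth of VHL-deficient renal carcinoma, and lies at chr2:46293667-46386703 on the plus strand. It had 5403, 6069 and 6187 counts in the knockout and 8068, 7889 and 7700 counts in the parental cells. These corresponded to 131.4, 130.6 and 130.8 CPM in the knockout and 185.6, 179.4 and 182.8 CPM in the parental cells. The 3 knockout libraries were nearly identical and all lay below the parental range. EPAS1 averaged 131 ± 0.412 CPM in the knockout and 183 ± 3.07 CPM in the parental cells (SD, n = 3 each). The log2 fold change was -0.48 with SE 0.029 and a 95% interval of -0.54 to -0.42, a 1.39-fold lower level (edgeR, adjusted p = 3.07e-20). No exon base of EPAS1 was shared with another annotated gene, and its tested neighbours within 10 Mb had a median log2 fold change of 0.04.

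HIF3A (ENSG00000124440; chr19:46297046-46343433) encodes the alpha subunit that includes inhibitory isoforms. It had 0, 0 and 1 counts in the knockout and 0, 1 and 0 counts in the parental cells, which is under the limit of 3 counts in all 6 libraries. HIF3A transcript was therefore not detectable at this depth, and no fold was computed. Antisense transcripts of the HIF1A locus were low: HIF1A-AS3 averaged 2.68 ± 0.0653 CPM in the knockout and 2.66 ± 0.457 CPM in the parental cells (SD, n = 3 each; log2 fold change 0.01, edgeR adjusted p = 0.965), and HIF1A-AS1 had 0 to 5 counts per library.

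The promoters of the alpha genes and of EGLN1 are printed because these genes carried the opposite changes and the highest rise called among the members. Each window runs from 250 bases before to 50 bases after the transcription start, read 5′ to 3′ in the direction of the gene, from RefSeq on GRCh38.p14. Capitals mark matches to the core of the HIF response element, searched as ACGTG or GCGTG on both strands. The windows are HIF1A at chr14:61695263-61695562 (plus strand), EPAS1 at chr2:46297157-46297456 (plus strand) and EGLN1 at chr1:231422238-231422537 (minus strand). Those of EPAS1 and EGLN1 lie inside the gene spans given here, so the start used differs from the outer end of the span. No other start of EPAS1 or EGLN1 was searched.
HIF1A: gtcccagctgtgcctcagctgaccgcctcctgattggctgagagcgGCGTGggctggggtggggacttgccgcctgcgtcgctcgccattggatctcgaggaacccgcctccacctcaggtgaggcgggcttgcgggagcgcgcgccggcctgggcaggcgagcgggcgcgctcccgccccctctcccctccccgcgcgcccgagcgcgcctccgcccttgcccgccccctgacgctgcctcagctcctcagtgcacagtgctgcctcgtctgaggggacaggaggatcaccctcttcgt
EPAS1: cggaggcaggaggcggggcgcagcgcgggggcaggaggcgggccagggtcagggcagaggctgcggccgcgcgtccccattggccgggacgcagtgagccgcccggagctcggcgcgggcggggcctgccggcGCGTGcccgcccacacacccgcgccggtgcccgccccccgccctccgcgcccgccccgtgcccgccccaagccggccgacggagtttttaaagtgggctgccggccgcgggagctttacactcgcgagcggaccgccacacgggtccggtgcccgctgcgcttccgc
EGLN1: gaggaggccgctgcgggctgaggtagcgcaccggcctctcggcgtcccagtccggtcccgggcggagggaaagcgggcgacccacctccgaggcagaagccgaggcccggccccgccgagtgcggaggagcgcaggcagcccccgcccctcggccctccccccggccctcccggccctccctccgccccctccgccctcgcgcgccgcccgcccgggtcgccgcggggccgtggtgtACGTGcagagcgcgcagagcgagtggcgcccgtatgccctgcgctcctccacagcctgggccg
The capital letters begin 204 bases before the start in HIF1A, 117 bases before it in EPAS1 and 13 bases before it in EGLN1. G and C made up 73.0% of the HIF1A window and 80.0% of the EPAS1 and EGLN1 windows. RefSeq promoters were matched for 8 of the 9 members (not VHL), in 12 windows, of which 5 (41.7%) held the HIF response element core, against 48.4% of 35116 promoters of the same length. The CCAAT enhancer binding protein-ATF response element TGATGNAAN, which ATF4 dimers are known to bind, matched none of the 12 windows, against 3.61% of all promoters. The palindrome TGACGTCA (cyclic AMP response element) matched none of the 12 windows either, against 1.85% of all promoters. A match is a description of these letters in these windows, not of binding.

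Because both alpha subunits pair with ARNT, their balance was computed within each library, where the scaling of libraries has no effect. The ratio of HIF1A to EPAS1, each in CPM per kb of union exon (all exon bases of a gene counted once), was 1.68, 1.68 and 1.76 in the knockout and 0.992, 1.01 and 1.02 in the parental cells. The alpha transcripts were thus near parity in the parental libraries and in favour of HIF1A in all knockout libraries, with no overlap. The log2 ratio averaged 0.77 ± 0.042 in the knockout and 0.01 ± 0.018 in the parental cells (SD, n = 3 each), a difference of 0.76 or 1.70-fold. The two-sided exact permutation p was 0.1, the smallest that 3 against 3 libraries allow, and 0.12 after Benjamini-Hochberg adjustment over the 6 balances computed. From the fit across all genes, the log2 fold change of HIF1A minus that of EPAS1 was 0.76 with SE 0.042 and an interval of 0.68 to 0.85.

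The 1.70-fold shift does not depend on gene length, but the level of the ratio does. Per count, with no length, the ratio was 1.20 ± 0.0353 in the knockout and 0.710 ± 0.00879 in the parental cells. Per kb of the longest coding transcript (3956 bases for HIF1A and 5166 bases for EPAS1), a basis chosen after seeing the data, it was 1.57 ± 0.0460 in the knockout and 0.927 ± 0.0115 in the parental cells (SD, n = 3 each). On each of the 3 bases HIF1A exceeded EPAS1 in the knockout, whereas in the parental cells the order of the 2 genes depended on the basis.

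The summed alpha level was slightly lower in the knockout, by an amount that depended on the length basis. HIF1A plus EPAS1 came to 48.2, 47.9 and 49.5 CPM per kb of union exon in the knockout and 50.6, 49.4 and 50.5 CPM per kb in the parental cells. On this basis the groups overlapped, with means of 48.5 ± 0.884 CPM per kb in the knockout and 50.2 ± 0.649 CPM per kb in the parental cells (SD, n = 3 each; log2 ratio -0.05, two-sided exact permutation p = 0.2). On the other bases, both computed after seeing the data, every knockout sum lay below every parental sum. Without length, the sums were 287, 285 and 294 CPM in the knockout and 315, 307 and 314 CPM in the parental cells (log2 ratio -0.11). Per kb of the longest coding transcript they were 64.8, 64.3 and 66.5 CPM per kb in the knockout and 68.8, 67.1 and 68.5 CPM per kb in the parental cells (log2 ratio -0.06). The two-sided exact permutation p was 0.1 on each of these bases, the smallest possible.

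**Figure D2:**
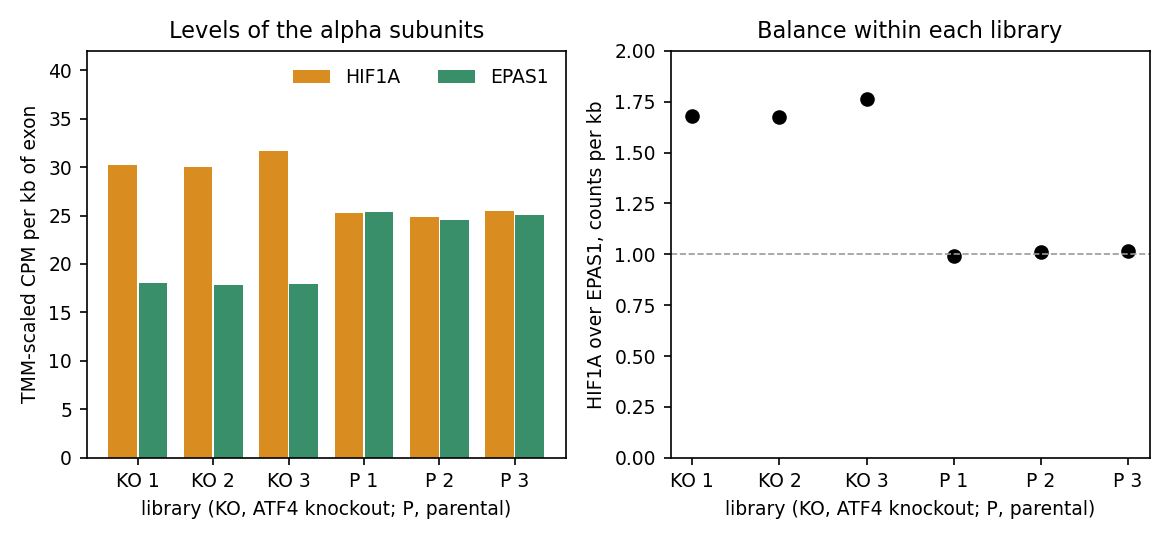
Left, TMM-scaled CPM per kb of union exon (y axis, from 0) of HIF1A and EPAS1 in each library (x axis); right, the ratio of HIF1A to EPAS1 in the same libraries, with a dashed line at equal levels. The knockout libraries sit at 1.68 to 1.76 and the parental libraries at 0.992 to 1.02.

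ARNT (ENSG00000143437; chr1:150809705-150876768, minus strand) encodes HIF-1beta, the shared partner of the alpha subunits and of the dioxin receptor AHR. It had 2105, 2606 and 2516 counts in the knockout and 2405, 2296 and 2264 counts in the parental cells. ARNT averaged 53.5 ± 2.45 CPM in the knockout and 53.8 ± 1.55 CPM in the parental cells (SD, n = 3 each), and the groups overlapped. Its log2 fold change was -0.01 with SE 0.043 and an interval of -0.09 to 0.08 (edgeR, adjusted p = 0.919). Its sign turned to 0.02 without knockout library 1 and to 0.01 without parental library 1, and it did not pass the test in either case. The log2 ratio of HIF1A plus EPAS1 to ARNT, per kb, was 2.56 ± 0.078 in the knockout and 2.60 ± 0.025 in the parental cells (SD, n = 3 each; two-sided exact permutation p = 0.6), and the difference of -0.04 became 0.005 without knockout library 2.

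Among the prolyl hydroxylases, EGLN1 and EGLN3 were higher in the knockout. EGLN1 (ENSG00000135766; chr1:231363751-231425044, minus strand) encodes PHD2, the main prolyl hydroxylase of HIF-1alpha in most cells and itself a HIF target. It had 1632, 1852 and 1980 counts in the knockout and 1346, 1288 and 1231 counts in the parental cells, or 39.7, 39.8 and 41.9 CPM in the knockout and 31.0, 29.3 and 29.2 CPM in the parental cells. All knockout libraries lay above all parental libraries. EGLN1 averaged 40.5 ± 1.22 CPM in the knockout and 29.8 ± 0.980 CPM in the parental cells (SD, n = 3 each). The log2 fold change was 0.44 with SE 0.050 and an interval of 0.34 to 0.54, a 1.36-fold higher level (edgeR, adjusted p = 1.15e-10).

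EGLN3 (ENSG00000129521; chr14:33924231-34462774, minus strand) encodes PHD3, the hydroxylase whose transcript is known as strongly hypoxia-inducible. It had 1316, 1469 and 1396 counts in the knockout and 1188, 1159 and 1132 counts in the parental cells, or 32.0, 31.6 and 29.5 CPM in the knockout and 27.3, 26.4 and 26.9 CPM in the parental cells. The groups did not overlap. The means were 31.0 ± 1.33 and 26.9 ± 0.482 CPM in the knockout and parental cells (SD, n = 3 each; log2 fold change 0.21, SE 0.053, interval 0.10 to 0.32, 1.16-fold higher, edgeR adjusted p = 0.00115).

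EGLN1 exceeded EGLN3 by more in the knockout than in the parental cells. The ratio per kb of union exon was 1.26, 1.28 and 1.44 in the knockout and 1.15, 1.13 and 1.10 in the parental cells. The groups did not overlap, and the highest ratio was that of knockout library 3. The log2 ratios were 0.40 ± 0.11 and 0.17 ± 0.030 in the knockout and parental cells, a difference of 0.23 or 1.17-fold (SD, n = 3 each; two-sided exact permutation p = 0.1, the smallest possible, and 0.12 adjusted over the 6 balances). Which of the genes has the higher level depends on the length used: per kb of the longest coding transcript (7097 bases for EGLN1 and 2849 bases for EGLN3) the ratio was 0.524 ± 0.0391 in the knockout and 0.446 ± 0.00914 in the parental cells (SD, n = 3 each).

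EGLN2 (ENSG00000269858; chr19:40798996-40808433, plus strand) encodes PHD1, and its count is uncertain as a gene level. The annotated read-through gene RAB4B-EGLN2 shares 2012 of the 2821 bases (71.3%) of the longest coding transcript of EGLN2 on the same strand and 30.6% of its union exon bases, and HTSeq, in its default mode, discards a read assigned to several genes. How many reads of EGLN2 this removed was not tested. RAB4B-EGLN2 itself had 0 counts in all 6 libraries. EGLN2 had 21, 28 and 52 counts in the knockout and 47, 41 and 54 counts in the parental cells. The groups overlapped through knockout library 3. Its log2 fold change was -0.56 with SE 0.28 and an interval of -1.12 to 0.01 (edgeR, adjusted p = 0.107). Without knockout library 3 it was -0.97 and passed the test (edgeR, adjusted p = 0.0145), which made the members called lower 2. As shares of the summed per-kb level of the EGLN transcripts, with EGLN2 at these counts, EGLN1 held 56.3 ± 1.49% in the knockout and 51.8 ± 0.637% in the parental cells, and EGLN3 held 42.6 ± 1.97% in the knockout and 46.1 ± 0.404% in the parental cells. EGLN2 held 1.13 ± 0.482% in the knockout and 2.11 ± 0.333% in the parental cells (SD, n = 3 each; two-sided exact permutation p = 0.1 for each share, the smallest possible, and 0.12 adjusted over the 6 balances). These shares are per kb of union exon. Per kb of the longest coding transcript EGLN3 stood above EGLN1, at 10.9 against 5.70 CPM per kb in the knockout and 9.43 against 4.20 CPM per kb in the parental cells. On that basis, chosen after seeing the data, the share in the knockout minus that in the parental cells was 3.85 percentage points for EGLN1 and -2.63 for EGLN3.

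HIF1AN (ENSG00000166135; chr10:100529072-100559998, plus strand) encodes FIH, the asparaginyl hydroxylase. It had 3979, 4658 and 4729 counts in the knockout and 4114, 4278 and 3864 counts in the parental cells, and averaged 99.0 ± 1.94 CPM in the knockout and 94.6 ± 2.78 CPM in the parental cells (SD, n = 3 each). The groups overlapped after scaling. This gave a log2 fold change of 0.07 with SE 0.034 and an interval of -0.00172 to 0.134, which did not pass the test (edgeR, adjusted p = 0.114). Scaled by total counts alone it was 0.09 and passed the test (edgeR, adjusted p = 0.0229). HIF1AN shares 2.3% of its exon bases with NDUFB8 on the opposite strand, and the strand setting of the counting is not given in the sources used here.

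VHL (ENSG00000134086; chr3:10141008-10152220, plus strand) encodes the substrate-recognition subunit that RCC4 cells lack in functional form, so its transcript level says nothing of its activity. It had 1431, 1870 and 1899 counts in the knockout and 1461, 1577 and 1455 counts in the parental cells. In CPM these were 34.8, 40.2 and 40.2 in the knockout and 33.6, 35.9 and 34.5 in the parental cells. Knockout libraries 2 and 3 were above all parental libraries, while knockout library 1 lay within the parental range. VHL averaged 38.4 ± 3.12 CPM in the knockout and 34.7 ± 1.14 CPM in the parental cells (SD, n = 3 each). VHL thus had a log2 fold change of 0.15 with SE 0.052 and an interval of 0.04 to 0.25, a 1.11-fold higher level (edgeR, adjusted p = 0.0179). The call was lost without knockout library 2 (0.11, edgeR adjusted p = 0.136), without knockout library 3 (0.11, adjusted p = 0.120) and without parental library 1 (0.13, adjusted p = 0.0977), each of which left 3 members called higher.

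**Figure D3:**
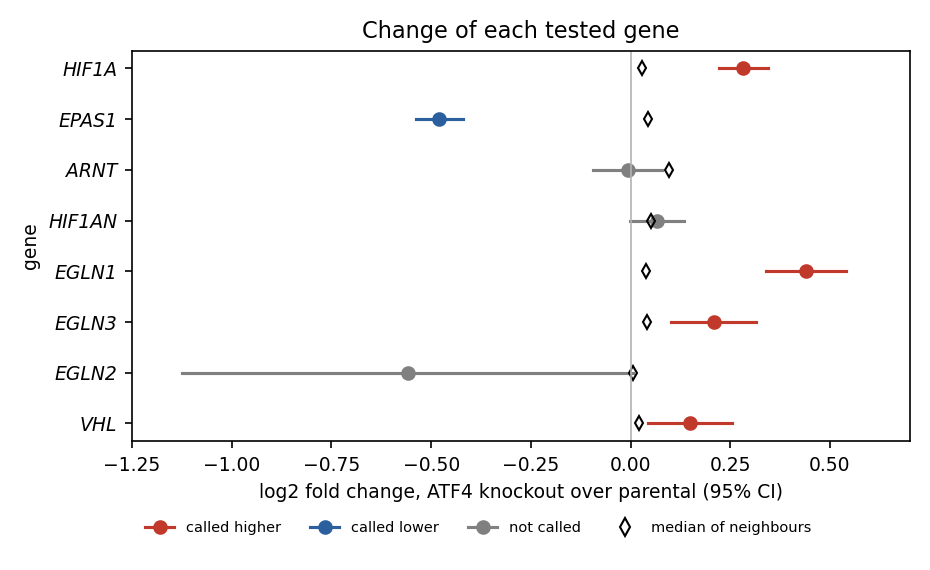
Log2 fold change, ATF4 knockout over parental (x axis), of each tested gene with its 95% interval, coloured by its call in edgeR; open diamonds are the median log2 fold change of the tested genes within 10 Mb on either side. EPAS1 at -0.48 and EGLN1 at 0.44 lie farthest from their neighbours among the members called, and the intervals of ARNT, HIF1AN and EGLN2 include 0.

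Neighbouring genes moved little around the members. The median log2 fold change of the tested genes within 10 Mb on either side ran from 0.01 at HIF3A and EGLN2 to 0.10 at ARNT, with 0.03 at HIF1A and 0.04 at EPAS1, EGLN1 and EGLN3. With these medians removed as an offset, EPAS1 was at -0.52, HIF1A at 0.25, EGLN1 at 0.40, and ARNT at -0.10 (edgeR, adjusted p = 0.0528).

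Compared per kb of union exon, HIF1A had the highest level of the 9 genes in the knockout, at 30.6 ± 0.885 CPM per kb, followed by EPAS1 at 17.9 ± 0.0564 CPM per kb. In the parental cells HIF1A at 25.2 ± 0.288 and EPAS1 at 25.0 ± 0.420 CPM per kb overlapped at the top. VHL and ARNT overlapped in both groups, at 9.11 ± 0.740 and 8.21 ± 0.376 CPM per kb in the knockout and at 8.23 ± 0.270 and 8.25 ± 0.237 CPM per kb in the parental cells. HIF1AN followed at 7.10 ± 0.139 CPM per kb in the knockout and 6.78 ± 0.199 in the parental cells, then EGLN1 at 5.57 ± 0.168 in the knockout and 4.11 ± 0.135 in the parental cells, and EGLN3 at 4.22 ± 0.181 in the knockout and 3.65 ± 0.0654 in the parental cells (SD, n = 3 each). These steps down did not overlap between neighbours in the order. Per kb of the longest coding transcript EGLN3 stood above HIF1AN and EGLN1 instead, at 10.9 ± 0.467 CPM per kb in the knockout and 9.43 ± 0.169 in the parental cells, so its place in the order rests on the transcript assumed.

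The genes whose mean-centred log2 CPM followed HIF1A most closely over the 6 libraries, by the root mean square difference among 12383 protein-coding genes, were NCS1 (0.0134), TTC7A (0.0148) and OXSR1 (0.0153). For EPAS1 they were HPS4 (0.0115), SYTL2 (0.0186) and FAM8A1 (0.0204). Because closeness over the 6 libraries was the rule of choice, their log2 fold changes had to lie near those of the alpha genes. They were 0.27 for NCS1, 0.30 for TTC7A and 0.28 for OXSR1, and -0.49 for HPS4, -0.49 for SYTL2 and -0.50 for FAM8A1. The tested neighbours within 10 Mb had a median log2 fold change of -0.29 at HPS4, -0.17 at SYTL2 and -0.04 at FAM8A1.

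The genes that act with the members were counted in lists by role. These counts are read beside the 21.2% of all tested genes called higher and the 20.8% called lower. No list was tested against those shares. Of 10 tested partners of VHL in its ubiquitin ligase and its neddylation, 2 were higher and 2 lower (list median log2 fold change 0.04, against 0.01 for all tested genes). UBE2M, the NEDD8-conjugating enzyme of cullins, was lower at 42.1 ± 0.716 CPM in the knockout and 49.7 ± 1.47 CPM in the parental cells (SD, n = 3 each; log2 fold change -0.24, edgeR adjusted p = 1.29e-05). RBX1, the RING subunit, was lower at -0.21, and its neighbours within 10 Mb had a median of -0.27. The scaffold CUL2 was higher at 0.11 and the adaptor ELOC at 0.10. CUL2 and ELOC both lost their calls without knockout library 1, without knockout library 3 or without parental library 1, and the count called higher was 1 without parental library 2.

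Of 8 tested coactivators of HIF and their antagonists, 5 were lower and 2 higher (median -0.12). CITED2, which competes with HIF alpha for EP300 and CREBBP and is itself a HIF target, had 613 ± 18.8 CPM in the knockout and 771 ± 19.8 CPM in the parental cells (SD, n = 3 each; log2 fold change -0.33, edgeR adjusted p = 1.44e-14). The related CITED4 fell by 0.57 on the log2 scale, at 1.78 ± 0.299 CPM in the knockout and 2.65 ± 0.125 CPM in the parental cells (SD, n = 3 each). The acetyltransferase EP300 was lower at -0.23, with a median of -0.27 over its neighbours, and its paralog CREBBP was higher at 0.10. SMARCA4, a chromatin remodelling ATPase, was higher at 0.08, while the coactivators NCOA1 at -0.11 and KAT5 at -0.14 were lower. The neighbours of KAT5 had a median of -0.13, and 38.6% of its exon bases are shared with genes on the opposite strand. The count called lower was 3 without knockout library 3 or parental library 1, and the count called higher was 1 without knockout library 2 or 3 or parental library 1 or 2.

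Of 24 tested chaperones and stability factors of the alpha subunits, the hydroxylases or VHL, 8 were higher and 5 lower (median 0.06). UBE2S, a ubiquitin-conjugating enzyme reported to act on VHL and better known from the anaphase-promoting complex, had 33.5 ± 0.518 CPM in the knockout and 20.4 ± 1.73 CPM in the parental cells (SD, n = 3 each; log2 fold change 0.72, edgeR adjusted p = 1.16e-15). MCM7, a replicative helicase subunit reported to bind HIF-1alpha, was higher at 0.52. WTIP and AJUBA, LIM proteins of the family that bridges hydroxylases and VHL, were lower at -0.60 and -0.17, and the related LIMD1 was at -0.01 and did not pass the test. USP20 at -0.26, SART1 at -0.13 and RACK1 at -0.10 were also called lower, and the neighbours of SART1 had a median of -0.13. The other genes of this list called higher were SENP1 at 0.36, HSP90AA1 at 0.31, PTGES3 at 0.15, GSK3B at 0.12, WSB1 at 0.11 and HSP90AB1 at 0.07.

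The other genes of the bHLH-PAS family, which pair with ARNT or resemble it, included 3 lower among 9 tested (median -0.09). ARNT2, the close relative that can replace ARNT as a HIF partner, had 42.5 ± 1.78 CPM in the knockout and 54.0 ± 2.44 CPM in the parental cells (SD, n = 3 each; log2 fold change -0.34, edgeR adjusted p = 8.11e-09). SIM1, an ARNT-binding transcription factor, had 6.62 ± 0.317 CPM in the knockout and 16.3 ± 1.73 CPM in the parental cells (SD, n = 3 each; -1.30, edgeR adjusted p = 1.58e-18). NPAS2, a partner of the clock factor BMAL1, was lower at -0.36. Genes of this family called higher numbered 2 with scaling by total counts, and 1 with the neighbours' median removed or without parental library 3.

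Target genes known to lean on HIF-1 or on HIF-2 in renal carcinoma cells were set beside the alpha genes. Both lists were chosen with earlier results of these data known, so they cannot serve as an independent check of the alpha genes. Again, 21.2% of all tested genes were called higher and 20.8% lower, and neither target list was tested against these shares. Of 6 HIF-1-leaning targets, 4 were higher (median 0.19). CA9, carbonic anhydrase IX, had 96.9 ± 3.63 CPM in the knockout and 16.6 ± 0.554 CPM in the parental cells (SD, n = 3 each; log2 fold change 2.55, edgeR adjusted p = 4.85e-45), and 38.5% of its exon bases are shared with a gene on the opposite strand. The mitophagy receptor BNIP3 was higher at 0.36, the glycolytic enzyme PGK1 at 0.18 and the pyruvate dehydrogenase kinase PDK1 at 0.20. LDHA, lactate dehydrogenase A, was at -0.05 (edgeR, adjusted p = 0.146). The aldolase ALDOA was at 0.18 (edgeR, adjusted p = 0.114), with 42.3% of its exon bases shared with another gene on the same strand, so its count is uncertain. The tested neighbours within 10 Mb had a median of -0.25 at PGK1 and -0.18 at LDHA. At the other genes of this list it ran from 0.02 at PDK1 to 0.11 at BNIP3. Without knockout library 1, 1 gene of this list was called lower.

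Of 4 tested HIF-2-leaning targets, 2 were lower and 1 higher (median -0.16). CCND1, cyclin D1, had 67.7 ± 1.99 CPM in the knockout and 145 ± 6.92 CPM in the parental cells (SD, n = 3 each; log2 fold change -1.10, edgeR adjusted p = 2.28e-32). The angiogenic factor VEGFA was lower at -0.28. The glucose transporter SLC2A1, also known to respond to HIF-1, was higher at 0.13. The growth factor TGFA was at -0.04 (edgeR, adjusted p = 0.307), and EPO, erythropoietin, had too few reads to be tested. The neighbours' median was -0.14 at CCND1, -0.07 at VEGFA, 0.07 at SLC2A1 and 0.06 at TGFA. With the neighbours' median removed, SLC2A1 lost its call, and the targets called lower were 3 on the HIF-2-leaning list, while those called higher were 5 on the HIF-1-leaning list. The difference between the 2 target lists was not tested.

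**Figure D4:**
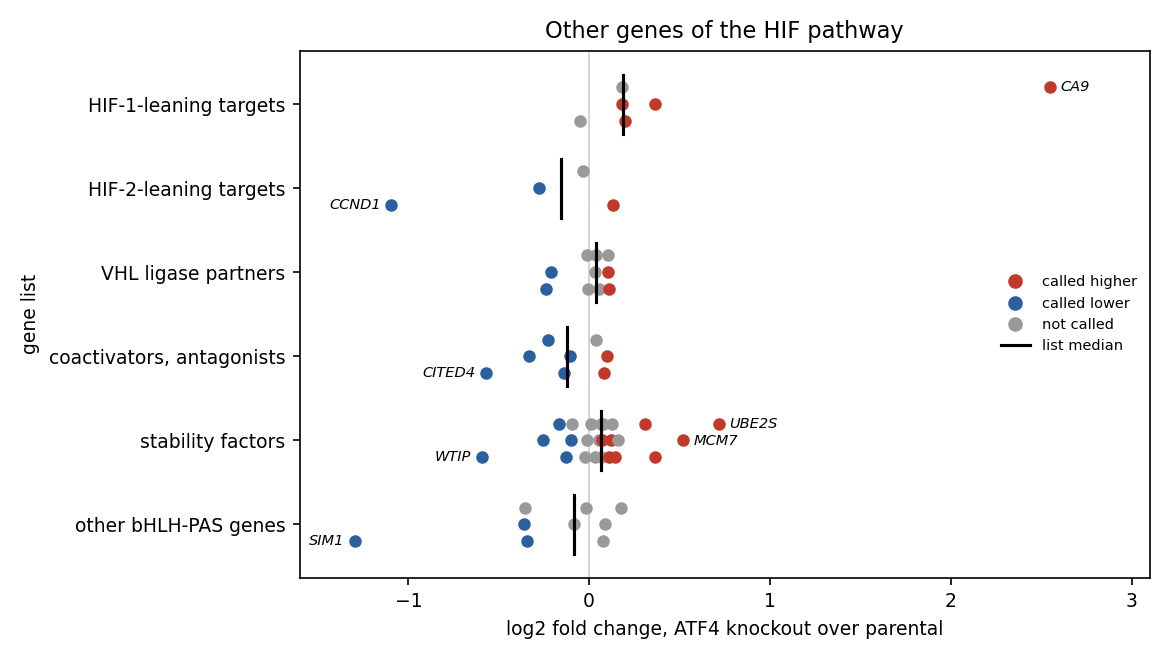
Log2 fold change, ATF4 knockout over parental (x axis), of the tested genes of each list (rows; vertical offset within a row only separates points), coloured by call in edgeR, with the list median as a black bar. The medians lie between -0.16 and 0.19, while CA9 at 2.55, CCND1 at -1.10 and SIM1 at -1.30 lie far from their list medians.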

How the data were processed

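Per the labels, RNA libraries of RCC4 cells were made with a stranded mRNA kit. The authors deposited raw counts of reads per gene. The submitters' processing notes name bcl2fastq 2.20, cutadapt, STAR and HTSeq with GRCh38, while for the strand setting and the annotation release nothing is given in these sources. Gene names came from a table of identifiers (60370 of 60683) and GENCODE 29 (289 more), whose positions and exon lengths were used. The counting may have used another release.

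Libraries were grouped by their labels into 3 knockout and 3 parental samples. Analyses used R 4.3.3. Genes passing edgeR's (4.0.16) filterByExpr were scaled by TMM and compared with its robust quasi-likelihood F test, without a replicate term, and p-values were adjusted over all 15321 genes (Benjamini-Hochberg). Genes with adjusted p below 0.05 were called. Errors are SD over libraries for CPM and SE of the fit for log2 fold changes. Within-library ratios were compared by two-sided exact permutation tests. The steps were tested on simulated data. Likeness used log2 CPM with a prior count of 2.

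Alternatives were other scalings (median-ratio size factors, total counts), DESeq2 1.42.0, limma-voom 3.58.1, filters on low counts (none, or a mean of 1 CPM), a replicate block, removal of the neighbours' median and leaving out each library. Named genes were all members, ATF4, up to 4 called genes of each list with the smallest p, and all target genes. The genes behind counts of 5 or fewer before any alternative setting, and for HIF1A and EPAS1 the 3 genes of closest pattern, were named too. Some markers, genes overlapping the members, LIMD1 and the remaining stability factors called higher were named besides. The members and lists were chosen with earlier results of these data known. After the results were known, 1 gene was taken out of the HIF-2-leaning list for a reason unrelated to its values and is not reported here, so that list's counts and median cover the genes kept. Same-numbered libraries did not deviate together (correlations -0.028, 0.006 and -0.016), and those of different number gave -0.0145 to 0.0301. No large effect shared by number was thus seen. These correlations cannot tell whether same-numbered libraries were cultured or prepared together.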

Additional observations from a re-analysis of the deposited data

How the results depend on the processing

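HIF1A, EPAS1, EGLN1 and EGLN3 kept their direction and their call under all 14 alternatives run for each gene, with log2 fold changes of 0.25 to 0.31, -0.52 to -0.45, 0.40 to 0.47 and 0.17 to 0.24. VHL kept its direction under all of them and its call under the 8 that used all libraries. Leaving out 1 library gave 0.11 to 0.21 for VHL, -0.97 to -0.37 for EGLN2, -0.0419 to 0.0180 for ARNT, 1 to 2 members called lower and -0.0663 to 0.00474 for the log2 balance of the alpha genes to ARNT. Scaled by total counts, ARNT was at 0.0193 and HIF1AN at 0.0924. The balance to ARNT was -0.11 per count and 0.0222 with the neighbours' median removed. Among alternatives chosen after seeing the data, the log2 ratio of the summed alpha level was -0.114 per count, -0.0219 with total counts and -0.0629 to -0.0379 without 1 library. The causes of these changes were not tested. With the replicate block, 4 members were called higher and 1 lower, and 3224 of all tested genes were called higher and 3181 lower. EGLN2 was too low for the filter at a mean of 1 CPM. Several list counts changed with the setting: CUL2, ELOC, CREBBP and SMARCA4 lost their calls with the neighbours' median removed, 1 VHL partner was called higher with median-ratio size factors, with DESeq2 and with either other filter, 2 bHLH-PAS genes were called higher with total counts, and 3 coactivators or antagonists were called lower with total counts, with DESeq2, without a filter and with the neighbours' median removed. Total counts raised the median of all tested genes to 0.03 on the log2 scale. HIF3A, at 0 or 1 count per library, was limited by depth, and EGLN2 had 21 to 54 counts per library.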
